A study of Mus musculus with 51 samples.

Results

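The early response of the C57BL/6 mammary gland (MG) to high-dose X-rays was taken from 7 of the 51 arrays deposited for the study, chosen by their titles, and every probe set of those arrays was measured. The 4 HD arrays came from females that had received 4 weekly whole-body doses of 1.8 Gy, with tissue collected 4 hr after the last dose, and the 3 sham arrays came from females handled in the same schedule without dose. All of these mice were virgin C57BL/6 females, 8 weeks old at the first exposure, and the tissue was the mammary gland with its lymph node removed, with 1 array per mouse. C57BL/6 is an inbred strain that resists radiation-induced mammary cancer, and the study set it beside the sensitive BALB/c strain and set the HD regimen beside a low-dose regimen (LD) of 4 weekly doses of 7.5 cGy. Groups used here only for comparison were C57BL/6 LD at 4 hr (4 arrays), C57BL/6 HD at 1 month (4 arrays) with its own sham mice (4 arrays), and BALB/c HD at 4 hr (4 arrays) with its own sham mice (3 arrays).

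X-rays break DNA, and the breaks stabilise p53, a transcription factor that switches on genes for cell cycle arrest, apoptosis, repair and its own shut-off. The mammary gland is a tree of luminal and myoepithelial cells set in a pad of white fat with vessels, fibroblasts and immune cells. A gland homogenate reports all of these cells at once, so a gene can be lower because a cell type became rarer or because its cells held less of the transcript, and fewer cells and less RNA per cell cannot be told apart in these arrays.

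Values are log2 expression after RMA, so that a difference of 1 is a doubling of signal, and levels of different genes are not compared because probes differ in brightness. Each gene stood on its brightest probe set, and a gene was called when limma gave an adjusted p under 0.05. Markers fitted the labelled tissue, with the adipocyte hormone gene Adipoq between 13.57 and 13.78 in HD glands and between 13.44 and 13.60 in sham glands, and the luminal keratin gene Krt8 between 10.36 and 11.86 in HD glands and between 11.41 and 11.83 in sham glands. The B cell gene Cd79a stayed between 4.02 and 4.42 in HD glands and between 4.15 and 4.42 in sham glands, near the bottom of the scale. Array medians lay between 6.16 and 6.26 in HD glands and between 6.29 and 6.33 in sham glands, the 7 arrays correlated with each other at 0.983 to 0.993 over probe sets, and the median standard error of a difference was 0.12. Sham replicate 1 held a milk protein transcript that the others lacked (Csn2 at 4.36, 4.33, 4.12 and 4.21 in HD glands, against 7.75, 4.25 and 4.54 in sham glands), and sham replicate 3 stood apart in mitotic genes, so counts are also given without each.

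At 4 hr after the last HD exposure, 50 genes were higher than in sham glands (0.423% of 11807 genes tested) and 52 were lower (0.440%). The higher genes rose by 0.42 to 2.54 log2 units, with a median of 0.83, and were led by p53 targets such as Cdkn1a, the cell cycle inhibitor p21, and Slc19a2, a thiamine transporter. The lower genes had differences of −3.39 to −0.36, with a median of −0.91, and held 6 genes of MHC class II antigen presentation, the alveolar transcription factor gene Elf5 and the monocyte chemokine receptor gene Ccr2. By the study's looser thresholds, a log2 difference beyond 0.58 with an unadjusted p under 0.01, 73 genes were higher (0.618%) and 184 were lower (1.56%). A second quantile normalization moved the balance of directions, to 65 higher and 43 lower genes by adjusted p and to 91 higher and 136 lower genes by the study's thresholds. HD and sham arrays did not overlap for all 50 genes called higher and for 51 of the 52 called lower, where 12.6% of all genes tested showed such a gap. The count of 102 calls depended on single mice, being 47 without HD replicate 1, 49 without HD replicate 3, 44 without the first sham gland and 61 without the third. Of the 102 genes, 71 lost their call on leaving out at least 1 of the 7 arrays, and each kept its direction. The treatment groups also lay in different columns of the array plate, HD in columns 6 to 8 and sham in columns 1 to 3, so plate column and treatment cannot be told apart. With column as a covariate the count was 34.

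The p53 element in DNA is a pair of decamers, and it could be found by sequence in a few of the promoters whose genes rose. Windows from 250 bases before to 50 bases after the start site (RefSeq, GRCm38.p6) were searched on both strands for the p53 consensus, a pair of decamers without a spacer, at 18 or more of its 20 positions, with the central C and G of each decamer kept. Of the 41 genes called higher with a promoter in the table, 4 held a match (9.76%), against 0 of 40 genes called lower and 45 of all 9430 genes (0.477%). These 4 are shown because they belong to the genes that rose, with the match in capitals, which starts 51 bases before the start site in Cdkn1a (chr17:29090888-29090987, plus strand), 195 bases before it in Ccng1 (chr11:40755422-40755521, minus strand), 117 bases before it in Rps27l (chr9:66946291-66946320, plus strand) and 1 base before it in Gtse1 (chr15:85859940-85859969, plus strand). Each matched 19 of the 20 positions, and a match describes the letters only. Where a gene had more than 1 annotated start site, the window with the best match was used. Distances count from the start site of that window, which need not be the main one of the gene.
Cdkn1a: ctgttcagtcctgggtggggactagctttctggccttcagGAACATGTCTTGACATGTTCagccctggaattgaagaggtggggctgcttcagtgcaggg
Ccng1: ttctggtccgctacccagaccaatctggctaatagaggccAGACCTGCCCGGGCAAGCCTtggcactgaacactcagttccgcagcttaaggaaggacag
Rps27l: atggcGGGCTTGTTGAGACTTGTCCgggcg
Gtse1: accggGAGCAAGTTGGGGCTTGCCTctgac

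Cdkn1a, whose product p21 halts the cell cycle, rose more than any other gene called in HD glands. Its level was 10.51, 10.91, 10.60 and 11 in HD glands, against 8.28, 7.91 and 8.46 in sham glands. Every HD gland lay more than 2 log2 units above the highest sham gland, a 5.83-fold difference (log2 2.54, standard error 0.42, adjusted p = 0.00289). Ccng1, the p53-induced cyclin G1, stood at 11.13, 11.22, 11.05 and 11.16 in HD glands, against 10.08, 10.17 and 10.27 in sham glands (log2 0.97, standard error 0.15, adjusted p = 0.00112). Rps27l, a ribosomal protein relative that p53 induces, showed the smallest change of the 50 genes that rose, at 11.54, 11.56, 11.55 and 11.55 in HD glands, against 11.16, 11.13 and 11.11 in sham glands (log2 0.42, standard error 0.07, adjusted p = 0.00223). Gtse1, which carries p53 out of the nucleus, was dim in all mice but did not overlap between the groups, at 5.15, 5.47, 5.06 and 5.43 in HD glands and 4.44, 4.16 and 4.21 in sham glands (log2 1.01, adjusted p = 0.00831). These 4 genes carry the promoter matches printed above.

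The negative feedback on p53 was represented by Mdm2, the ligase that marks p53 for degradation, whose level was 9.28, 9.22, 9.29 and 9.36 in HD glands, against 8.10, 8.16 and 8.14 in sham glands. Both of its groups were tight, and the 2.23-fold difference had one of the smallest p-values of the list (log2 1.16, standard error 0.11, adjusted p = 6.67e-06). Trp53inp1, a stress-induced cofactor of p53, stood at 10.38, 10.51, 10.47 and 10.59 in HD glands and 9.09, 8.74 and 8.80 in sham glands (log2 1.61, adjusted p = 0.000147). Zmat3, an RNA-binding p53 target, stood at 8.96, 9.09, 8.85 and 8.97 in HD glands and 7.61, 7.72 and 7.45 in sham glands (log2 1.37, adjusted p = 1.98e-05). Sesn2, a sestrin that restrains growth signalling under stress, stood at 6.73, 6.83, 7.01 and 6.88 in HD glands and 6.01, 6.04 and 5.84 in sham glands (log2 0.90, adjusted p = 0.00749). In all of these genes the lowest HD gland exceeded the highest sham gland. Gadd45a, a growth arrest gene induced by DNA damage, and Sfn, the epithelial checkpoint gene for 14-3-3 sigma, did not pass the test, with log2 differences of −0.56 (adjusted p = 0.278) and −0.63 (adjusted p = 0.230).

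Of the 12 genes of the p53 repair and metabolism list, 3 were called higher (Slc19a2, Polk and Rps27l) and 5 had a difference below 0, where 0.423% of all genes were called higher. The arrest and feedback list held a further 3 called genes that encode enzymes (Ephx1, Dcxr and Ak1). Slc19a2 had the smallest p-value among the genes called, at 8.63, 8.62, 8.49 and 8.53 in HD glands, against 6.55, 6.38 and 6.68 in sham glands, a 4.08-fold difference (log2 2.03, standard error 0.15, adjusted p = 2.34e-07). Ephx1, an epoxide hydrolase of xenobiotic metabolism, stood at 10.64, 10.57, 10.80 and 10.70 in HD glands and 9.50, 9.31 and 9.16 in sham glands (log2 1.36, adjusted p = 2.38e-06). Dcxr, a sugar and dicarbonyl reductase, stood at 9.20, 9.26, 9.34 and 9.32 in HD glands and 8.11, 8.12 and 8.01 in sham glands (log2 1.20, adjusted p = 2.48e-06). The groups of all of these genes were apart by more than the spread within either. Ak1, an adenylate kinase, rose by 1.11 (adjusted p = 0.0125), while its other probe set gave 0.20 (adjusted p = 0.224). Polk, a polymerase that copies past damaged bases, rose by 1.10 on the log2 scale (standard error 0.18, adjusted p = 0.00196), and Mgmt, a gene of the excision and mismatch repair list and of none of the p53 lists, which removes alkyl groups from guanine, rose by 0.66 (adjusted p = 0.0219), a call that was kept only when HD replicate 3 was the array left out. The nucleotide excision repair gene Xpc did not pass, with a log2 difference of 0.40 (adjusted p = 0.104), although its HD values of 7.89, 7.89, 7.90 and 7.76 lay above the sham values of 7.46, 7.35 and 7.56.

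Among apoptosis genes the response was uneven. Aen, an exonuclease that fragments DNA during apoptosis, stood at 8.72, 8.48, 8.58 and 8.56 in HD glands, against 6.82, 6.74 and 6.67 in sham glands (log2 1.84, standard error 0.19, adjusted p = 1.54e-05). Ei24, a p53-induced membrane protein gene, rose by 0.51 (adjusted p = 0.000273) and Apaf1, the scaffold of the apoptosome, rose by 0.78 (adjusted p = 0.0153). The call of Apaf1 was lost on leaving out HD replicate 1 (adjusted p = 0.0526) or sham replicate 2 (adjusted p = 0.0858). Probe sets that did not pass gave 0.26 for Apaf1 (adjusted p = 0.461) and 0.27 for Aen (adjusted p = 0.176). The death receptor gene Fas lay just outside the threshold, at 8.55, 8.71, 8.85 and 8.79 in HD glands and 8.26, 8.05 and 8.14 in sham glands (log2 0.58, standard error 0.14, adjusted p = 0.0516). The mitochondrial death genes Bbc3, which encodes Puma, and Pmaip1, which encodes Noxa, gave log2 differences of −0.03 (standard error 0.17, adjusted p = 0.970) and 0.29 (standard error 0.23, adjusted p = 0.640), with HD and sham arrays overlapping in both. Perp, a p53 target of epithelial junctions, gave −0.58 (adjusted p = 0.490). Phlda3, an inhibitor of Akt, gave 0.32 (adjusted p = 0.438) with overlapping groups.

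**Figure D1:**
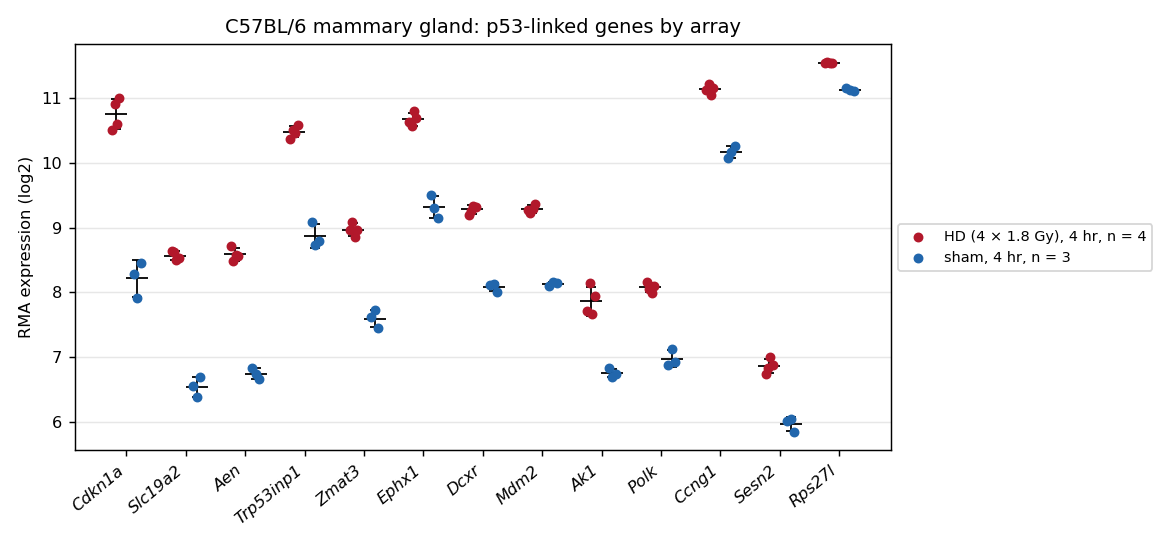
RMA expression (log2) of 13 p53-linked genes in each C57BL/6 gland at 4 hr, with 4 HD glands left of 3 sham glands for each gene, horizontal marks at the group means and bars of 1 SD. In every gene shown the lowest HD gland lies above the highest sham gland, from a log2 difference of 2.54 for Cdkn1a to 0.42 for Rps27l.

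The lists of p53 target genes, 3 in number and written from general knowledge for arrest and feedback, apoptosis, and repair and metabolism, held 55 measured genes, of which 16 were called higher and 0 lower, with a median log2 difference of 0.29 beside −0.01 over all genes. The arrest and feedback list gave 10 of its 26 genes, the apoptosis list 3 of 17 and the repair and metabolism list 3 of 12, with medians of 0.43, 0.20 and 0.23. Over all genes tested, 0.423% were called higher. Of the 55 genes, 20 had a difference below 0, so the response involved part of the lists. The mean level of the arrest and feedback list lay between 0.45 and 0.54 in HD glands and between −0.04 and 0.00 in sham glands, relative to its median over the 23 C57BL/6 MG arrays. Called genes of the arrest list numbered 9 or 10 with any 1 of the 7 arrays left out and 7 with plate column as a covariate.

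Outside these lists, Alas2, the enzyme that starts heme synthesis in red cell precursors, was among the 5 genes that rose most. Its level was 7.80, 7.88, 8.37 and 7.97 in HD glands, against 6.68, 6.27 and 6.36 in sham glands (log2 1.57, standard error 0.28, adjusted p = 0.00586). The other red cell genes measured did not pass, with log2 differences of 0.49 for the globin gene Hba-a1 (adjusted p = 0.104), 0.34 for Fech, the last enzyme of heme synthesis (adjusted p = 0.0504), and 0.03 for the red cell membrane gene Slc4a1. Of 7 erythroid genes 1 was called, where 0.423% of all genes were called higher. The list mean lay between 0.29 and 0.41 in HD glands and between −0.09 and 0.10 in sham glands, relative to its median over 23 arrays. The part that blood in the tissue had in this was not tested. Rbp7, a retinoid-binding protein gene of fat and its vessels, rose by 1.24 (adjusted p = 0.0219), and Aaas, a nuclear pore gene, rose by 1.18 (adjusted p = 0.00217). Rbp7 was not called without HD replicate 1, HD replicate 3, sham replicate 2 or sham replicate 3 (adjusted p of 0.0548 to 0.109). The median over 14 white adipocyte genes was 0.11, with 0 called in either direction, and over 22 endothelial genes it was 0.13, also with 0 called.

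MHC class II molecules display peptides to T helper cells and are made by dendritic cells, B cells and activated macrophages. Of 12 class II presentation genes, 6 were called lower and 0 higher, where 0.440% of all genes were called lower. A difference below 0 was seen in 11 of them, and the median was −0.94 beside −0.01 over all genes. With any 1 array left out 5 or 6 of them were called, and 5 with plate column as a covariate. Classical class II promoters are known to carry a CCAAT-type Y box, whose core reads ATTGG or CCAAT. The core was present on either strand in 4 of the 4 called class II genes with a promoter in the table (H2-Aa, H2-Eb1, H2-DMa and H2-DMb2), in 7 of all 8 list members there, and in 42.7% of the 9430 promoters. The longer form CTGATTGG or CCAATCAG, which contains the core, was in 3 of the 8 (H2-Aa, H2-Eb1 and H2-Oa) and in 5.91% of all promoters. Over all calls with a promoter, the core was in 21 of 41 genes called higher (51.2%) and 17 of 40 called lower (42.5%), and the longer form in 7 of 41 called higher (17.1%) and 4 of 40 called lower (10%). Stretches of 3 of these promoters are printed because their genes fell, with a core in capitals 48 bases before the start site in H2-Aa (chr17:34287844-34287943, minus strand), 59 bases before it in H2-Eb1 (chr17:34305747-34305846, plus strand) and 90 bases before it in H2-DMb2 (chr17:34145129-34145228, plus strand), all from RefSeq on GRCm38.p6. A match describes the letters and is no site.
H2-Aa: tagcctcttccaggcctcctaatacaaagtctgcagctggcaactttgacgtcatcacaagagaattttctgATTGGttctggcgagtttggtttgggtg
H2-Eb1: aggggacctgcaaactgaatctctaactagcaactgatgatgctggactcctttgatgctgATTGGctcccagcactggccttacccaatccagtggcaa
H2-DMb2: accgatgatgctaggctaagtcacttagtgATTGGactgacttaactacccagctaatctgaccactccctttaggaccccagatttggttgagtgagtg

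The peptide-binding chains fell furthest. H2-Aa, an alpha chain, stood at 8.86, 8.03, 8.65 and 9.07 in HD glands, against 11.09, 10.54 and 10.69 in sham glands. All 4 HD glands lay well under the lowest sham gland, and the mean was 4.34-fold lower after HD (log2 −2.12, standard error 0.25, adjusted p = 6.82e-05). H2-Ab1, its beta chain partner, stood at 7.86, 7.68, 8.06 and 8.26 in HD glands and 10.17, 9.62 and 9.85 in sham glands (log2 −1.92, standard error 0.21, adjusted p = 2.22e-05), and 3 of its 3 probe sets were called. H2-Eb1, the other beta chain, stood at 8.38, 8.19, 8.32 and 8.60 in HD glands and 10.61, 10.02 and 10.26 in sham glands (log2 −1.93, standard error 0.19, adjusted p = 7.6e-06). The alpha chain gene H2-Ea, which C57BL/6 mice are known not to express, was near the bottom of the scale in both groups, with a difference of 0.00 (standard error 0.16, adjusted p = 0.998).

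The chaperones of peptide loading fell with the chains. Cd74, the invariant chain that guides class II molecules to endosomes, stood at 9.59, 9.43, 9.54 and 9.89 in HD glands, against 11.43, 10.75 and 11.06 in sham glands (log2 −1.47, standard error 0.20, adjusted p = 0.000297). The peptide exchange chains H2-DMa and H2-DMb2 fell by 1.37 (adjusted p = 0.0152) and 1.26 (adjusted p = 0.00194) on the log2 scale. The HD and sham glands did not overlap in either gene. Another probe set of H2-DMb2 gave −0.08 (adjusted p = 0.891). H2-DMa lost its call on leaving out HD replicate 3 (adjusted p = 0.0501), sham replicate 1 (adjusted p = 0.074) or sham replicate 3 (adjusted p = 0.0992). H2-DMb1, whose product pairs with the same chain, gave −0.53 (adjusted p = 0.179), and the protease gene Ctss gave −0.62 (adjusted p = 0.375). Ciita, the master activator of class II genes, was dim in every gland, between 4.06 and 4.17 in HD glands and between 4.12 and 4.21 in sham glands, with a difference of −0.04 (standard error 0.09, adjusted p = 0.917). Its level at the bottom of the scale limits what the arrays can show about it.

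Markers of the immune cells that carry class II had medians closer to 0 than the class II genes. The pan-leukocyte list had a median of −0.34, with 22 of 25 genes below 0 and 1 called lower, where 0.440% of all genes were called lower. Its mean level lay between −0.77 and −0.21 in HD glands and between −0.30 and 0.28 in sham glands, so that the groups overlapped. Ptprc, the leukocyte surface gene CD45, stood at 7.90, 8.26, 8.18 and 8.48 in HD glands and 9.56, 8.55 and 9.50 in sham glands, a difference of −1.0 that did not pass (standard error 0.35, adjusted p = 0.215). Medians were −0.08 over 30 macrophage genes, −0.11 over 12 dendritic cell genes and −0.07 over 18 B cell genes, with 0 called in each. At an unadjusted p under 0.05, 6 macrophage genes, 3 dendritic cell genes and 1 B cell gene were lower and 0 were higher, and 3, 3 and 1 of these lists' genes had all HD glands below all sham glands. Among all 11807 genes, 998 were lower and 628 higher at that p, and 898 had all HD glands below all sham glands. The B cell counts and the macrophage count without overlap lay near those shares. The macrophage list mean lay between −0.56 and 0.11 in HD glands and between −0.34 and 0.27 in sham glands, while the dendritic cell list mean lay between −0.13 and −0.08 in HD glands and between 0.00 and 0.09 in sham glands, without overlap. The macrophage genes with the smallest p were Cx3cr1, a chemokine receptor gene (log2 −0.53, adjusted p = 0.0635), and Cd14, a receptor for bacterial lipopolysaccharide (log2 −0.79, adjusted p = 0.0646). The lineage genes Adgre1, which encodes F4/80, and Csf1r, a growth factor receptor, gave −0.36 (adjusted p = 0.696) and −0.09 (adjusted p = 0.929), with overlapping groups. Few dendritic or B cell genes were bright, with 1 of 12 and 4 of 18 having a mean of at least 6. The part of cell composition in the fall of the class II genes was not tested.

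The leukocyte gene that was called, Cytip, which regulates adhesion of activated T and dendritic cells, stood at 5.32, 6.24, 5.43 and 6.29 in HD glands, against 8.46, 8.03 and 7.99 in sham glands (log2 −2.34, standard error 0.47, adjusted p = 0.0181). It was not called without HD replicate 1, HD replicate 3, sham replicate 1 or sham replicate 3 (adjusted p of 0.0538 to 0.111). Ccr2, the receptor that draws monocytes out of marrow, stood at 5.71, 6.29, 5.95 and 6.41 in HD glands and 7.97, 7.26 and 8.57 in sham glands (log2 −1.85, standard error 0.32, adjusted p = 0.00574), with 3 of 3 probe sets called. Without sham replicate 3 its adjusted p was 0.0538. Both genes separated the groups by more than the spread among HD glands. Gzma, a granule protease of cytotoxic lymphocytes, fell by 0.89 (adjusted p = 0.0178). It was the 1 gene called of 17 NK and cytotoxic genes, where 0.440% of all genes were called lower. The call was lost on leaving out HD replicate 1 (adjusted p = 0.0676), sham replicate 1 (adjusted p = 0.103) or sham replicate 3 (adjusted p = 0.112). Over 32 interferon response genes the median was −0.27, with 30 below 0 and 0 called.

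Of 32 luminal genes, 3 were called lower and 0 higher, where 0.440% of all genes were called lower. Elf5, the transcription factor of luminal progenitors and alveolar cells, stood at 6.75, 6.16, 7.02 and 6.88 in HD glands, against 10.11, 8.44 and 9.21 in sham glands (log2 −2.55, standard error 0.45, adjusted p = 0.0059). Ehf, an epithelial factor of the same ETS family, stood at 5.35, 5.73, 4.95 and 5.92 in HD glands and 9.05, 7.70 and 8.23 in sham glands (log2 −2.84, standard error 0.60, adjusted p = 0.0244). In both genes sham replicate 1 was the highest gland, and the lowest sham gland still lay more than 1 log2 unit above every HD gland. Kit, the receptor that marks luminal progenitors and also mast cells, gave −1.31 (standard error 0.31, adjusted p = 0.0494), the weakest of the 3. Other probe sets did not pass, at −0.41 for Elf5 (adjusted p = 0.288) and −2.03 and −1.14 for Ehf (adjusted p = 0.0819 and 0.22). Elf5 was not called without sham replicate 1 (adjusted p = 0.0673). Ehf lost its call on leaving out HD replicate 1, HD replicate 3, sham replicate 1 or sham replicate 3 (adjusted p of 0.0689 to 0.166). Kit lost its call on leaving out any 1 of the 7 arrays (adjusted p of 0.0582 to 0.261), and with sham replicate 1 left out the luminal list had 0 called genes.

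The gene that fell most was Muc15, a membrane mucin, at 6.18, 6.45, 5.76 and 6.43 in HD glands, against 10.52, 8.86 and 9.39 in sham glands, a 10.5-fold fall (log2 −3.39, standard error 0.58, adjusted p = 0.00509). Fcgbp, a secreted mucus protein gene, stood at 7.84, 8.10, 7.32 and 7.54 in HD glands and 11.31, 10.06 and 10.18 in sham glands (log2 −2.82, standard error 0.45, adjusted p = 0.00196). Wfdc18, a secreted whey acidic protein relative, stood at 9.56, 9.97, 9.18 and 9.60 in HD glands and 12.01, 11.22 and 11.40 in sham glands (log2 −1.96, standard error 0.43, adjusted p = 0.0314). These secretory genes did not overlap between groups, and their highest value was in sham replicate 1, the gland with the Csn2 transcript. Without it Muc15 had an adjusted p of 0.0545, and Wfdc18 was called only when HD replicate 2 was the array left out. Further genes that fell were the forkhead factor gene Foxi1 (log2 −2.14, adjusted p = 0.0349), the cytoskeletal gene Pdlim3 (log2 −1.96, adjusted p = 0.0159), the epithelial surface gene Plet1 (log2 −1.56, adjusted p = 0.0364) and the ion pump regulator gene Fxyd3 (log2 −1.35, adjusted p = 0.0152). Each of these 4 lost its call without HD replicate 1, HD replicate 3 or sham replicate 1, Foxi1 and Plet1 also without HD replicate 2 or sham replicate 3, and Foxi1 also without HD replicate 4. Another probe set of Plet1 gave −0.04 (adjusted p = 0.96). Over 13 milk protein and secretory genes the median was −0.18, with 0 called, and in sham glands the list mean was 0.73 in replicate 1 and 0.08 and 0.01 in the others.

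The main luminal keratins did not pass the test. Krt8 stood at 10.36, 11.25, 10.54 and 11.86 in HD glands and 11.41, 11.74 and 11.83 in sham glands, with overlapping groups (log2 −0.66, standard error 0.37, adjusted p = 0.467), and Krt19 gave −0.60 (adjusted p = 0.353). The tight junction gene Cldn7 gave −1.19 (adjusted p = 0.0806) and the surface mucin gene Muc1 gave −1.0 (adjusted p = 0.0612). Over all 32 luminal genes the median was −0.59, with 26 below 0 and 9 lower past the study's thresholds, where 1.56% of all genes were. Their mean level was −0.89, −0.53, −0.88 and −0.30 in HD replicates 1 to 4, against −0.19, 0.05 and −0.05 in sham glands, so HD replicates 1 and 3 were lowest and HD replicate 4 lay next to the sham glands. Myoepithelial and smooth muscle genes had a median of −0.31 over 19 genes with 0 called, and the hormone receptor genes Esr1 and Pgr gave 0.32 (adjusted p = 0.446) and 0.02 (adjusted p = 0.985) at low levels. The part of epithelial content in the fall of Elf5, Ehf and the secretory genes was not tested.

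**Figure D2:**
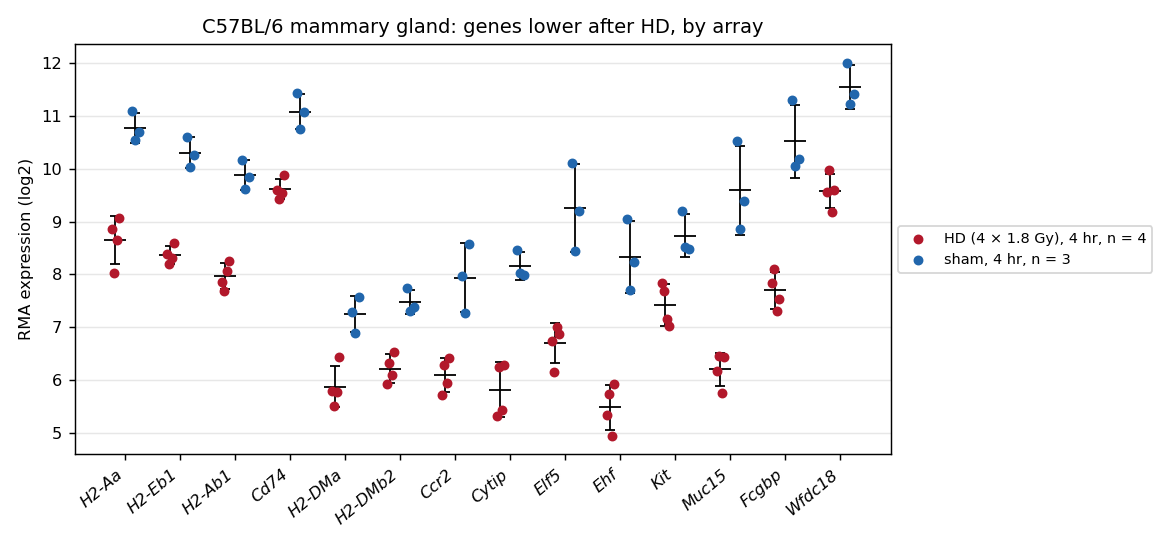
RMA expression (log2) of 14 genes called lower after HD in each C57BL/6 gland at 4 hr, with 4 HD glands left of 3 sham glands, horizontal marks at the group means and bars of 1 SD. HD and sham glands are apart for every gene shown, and in the epithelial genes such as Muc15 and Elf5 the sham glands spread over more than 1 log2 unit.

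Of 18 TGF-beta genes, Id2 and Tgfb3 were called lower and 0 higher, where 0.440% of all genes were called lower, and the median was −0.20. Id2, an inhibitor of differentiation factors, stood at 7.69, 8.32, 7.94 and 7.62 in HD glands and 9.49, 8.68 and 9.31 in sham glands (log2 −1.27, standard error 0.19, adjusted p = 0.00137). Tgfb3, a TGF-beta ligand of mammary involution, stood at 6.84, 7.29, 7.05 and 7.0 in HD glands and 8.65, 8.30 and 8.12 in sham glands (log2 −1.31, adjusted p = 0.0183). The groups were apart for both, and Tgfb3 lost its call on leaving out HD replicate 1, HD replicate 3, sham replicate 1 or sham replicate 2 (adjusted p of 0.0522 to 0.134). Another probe set of Id2 gave −0.25 and did not pass (adjusted p = 0.521). Over 25 Wnt ligands and modulators the median was −0.21 with 0 called, and Wnt4, the ligand downstream of progesterone, gave −0.58 (adjusted p = 0.379). Over 36 collagen and elastic fibre genes it was −0.22 with 0 called, and the collagen gene Col1a1 gave −0.51 (adjusted p = 0.281).

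The rise of Cdkn1a was not joined by a called change in proliferation genes. Over 54 genes of G2/M and mitosis the median was −0.39 and 44 were below 0, but limma called 0 and 0 had an unadjusted p under 0.05. The list mean was −0.32, 0.15, −0.25 and −0.07 in HD glands, against −0.13, 0.05 and 1.0 in sham glands, and the median was −0.08 without sham replicate 3. Mki67, the proliferation antigen, stood at 5.52, 6.73, 5.35 and 6.14 in HD glands and 6.29, 6.70 and 8.78 in sham glands (log2 −1.32, standard error 0.83, adjusted p = 0.529). Its HD and sham values overlapped, and sham replicate 3 was the highest. Genes of the MCM helicase and of origin licensing had a median of −0.28 over 25 genes, with 21 below 0 and 0 called. At an unadjusted p under 0.05, 8 of them were lower, beside 998 of all 11807 genes. In 7 of the 25, all HD glands lay below all sham glands, beside 898 of all 11807 genes. The list median was −0.21 without sham replicate 3. The 28 genes of DNA synthesis and nucleotide supply had a median of −0.31, with 26 below 0 and 0 called. At an unadjusted p under 0.05, 5 of these 28 were lower. Their list mean was −0.23, 0.02, −0.22 and −0.06 in HD glands, against −0.07, 0.06 and 0.67 in sham glands. Cdt1, which loads the helicase, gave −0.99 with HD glands all below sham glands (standard error 0.38, adjusted p = 0.265), and the helicase gene Mcm6 gave −0.79 (adjusted p = 0.326). Other probe sets of Cdt1 gave −0.75 (adjusted p = 0.255) and 0.05 (adjusted p = 0.884).

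**Figure D3:**
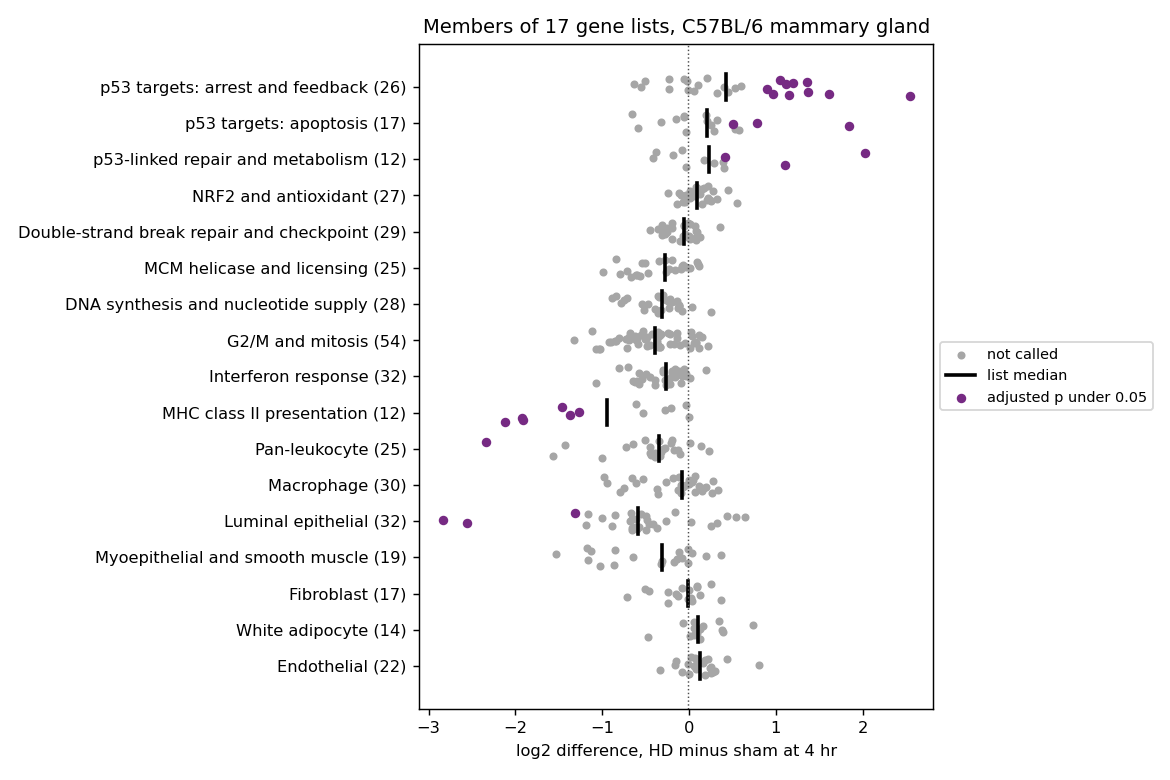
Each dot is the log2 difference, HD minus sham at 4 hr, of 1 gene, in 17 gene lists with the number of measured genes in brackets, with genes of adjusted p under 0.05 in purple, list medians as black bars and the median of all genes as a dotted line. The p53 arrest list reaches furthest right, with 10 called genes, and the class II list furthest left by its median of −0.94.

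**Figure D4:**
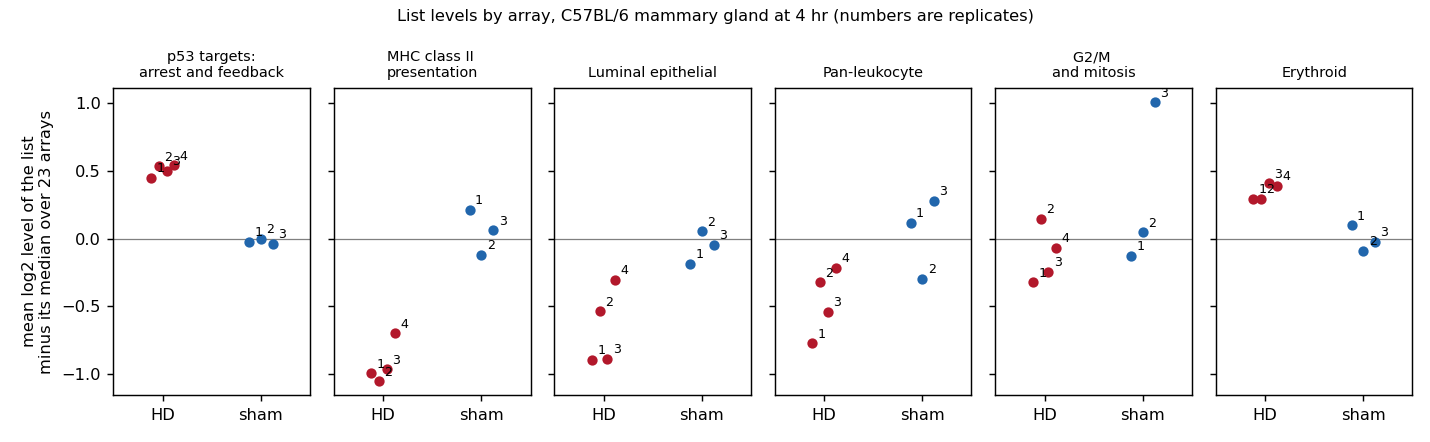
Mean log2 level of 6 gene lists in each C57BL/6 gland at 4 hr, relative to the list's median over 23 C57BL/6 MG arrays, with HD left of sham and replicates numbered. HD and sham are well apart for p53 arrest genes and class II genes, lie next to each other for luminal genes and overlap for pan-leukocyte genes, and sham replicate 3 alone is high for mitotic genes.

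A direct test set HD glands against LD glands at 4 hr over all genes. It called 60 genes higher (0.508% of 11807) and 126 lower (1.07%) in HD than in LD glands, or 82 and 72 after a second quantile normalization. Of the genes called against sham, 32 of the 50 higher and 34 of the 52 lower were called in the same direction against LD, while 36 were not called. These genes were chosen on the same HD arrays that enter the test against LD. Their shared direction is therefore partly fixed by that choice, and the counts are a description. The LD glands set against the same sham glands gave 0 called genes with limma, with 541 at an unadjusted p under 0.05. Both responses share the sham arrays, so values are given side by side. Cdkn1a was 2.54 above sham in HD glands and 0.28 above sham in LD glands. Slc19a2 gave 2.03 in HD glands and 0.07 in LD glands, and H2-Aa gave −2.12 in HD glands and −0.51 in LD glands. The largest differences between HD and LD were 2.26 for Cdkn1a (adjusted p = 0.0045), 2.02 for Aen and 1.96 for Slc19a2 upward, and −2.50 for Muc15 (adjusted p = 0.0228), −2.14 for Ear3, an eosinophil ribonuclease gene, and −2.11 for Cytip downward. The count of 186 rested on single mice, at 50 without HD replicate 1, 86 without HD replicate 2, 102 without HD replicate 3, 423 without HD replicate 4, 434 without LD replicate 1, 46 without LD replicate 2 and 87 without LD replicate 3, and the LD arrays filled plate columns of their own.

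Some genes called after HD had LD differences of similar size, none of which passed against sham. In 14 of the 102 genes the LD difference from sham was at least 0.5 of the HD difference and of the same sign. Angptl4, which blocks lipoprotein lipase, stood at 11.21, 11.17, 11.75 and 11.60 in HD glands, against 10.35, 9.56 and 10.18 in sham glands (log2 1.40, adjusted p = 0.0137), and the LD difference was 0.84. The HD call was lost without HD replicate 3 (adjusted p = 0.0572) or sham replicate 2 (adjusted p = 0.0809). Its difference between HD and LD was 0.56 (adjusted p = 0.236). Another probe set of Angptl4 gave 0.11 for HD against sham (adjusted p = 0.734). Angptl8, a feeding-induced partner of the same lipase pathway, stood at 8.12, 7.22, 6.02 and 6.65 in HD glands and 9.09, 9.57 and 9.12 in sham glands (log2 −2.26, adjusted p = 0.0156), with an LD difference of −1.75 and a difference between HD and LD of −0.51 (adjusted p = 0.537). Its HD call was lost on leaving out HD replicate 3, sham replicate 1 or sham replicate 2 (adjusted p of 0.0545 to 0.0697). Angptl8 gave −0.08 in BALB/c HD glands and 0.60 in C57BL/6 HD glands at 1 month, each against its own sham mice. Txnip, the thioredoxin inhibitor that responds to glucose, rose by 0.77 after HD (adjusted p = 0.00574) and differed by 0.59 after LD. Klhl24 and Nrip1 rose by 0.65 (adjusted p = 0.0320) and 0.59 (adjusted p = 0.0252) after HD and differed by 0.61 and 0.55 after LD. Klhl24 kept its HD call only when HD replicate 4 was the array left out, and Nrip1 lost it without HD replicate 1, HD replicate 3, sham replicate 2 or sham replicate 3. The other probe set of Nrip1 gave 0.55 after HD (adjusted p = 0.123). These genes share the 3 sham glands in both comparisons.

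At 1 month after the last dose, with separate HD and sham mice, the medians of the genes called at 4 hr are given as a description, since genes chosen for passing in 1 comparison tend to have smaller differences in another. The 1-month HD arrays lay in plate columns 9 to 12 and their sham arrays in columns 1, 2 and 5. Plate column and treatment cannot be told apart at this time either. The 50 genes higher at 4 hr had a median of 0.15 at 1 month, with 40 of them above 0 and 2 called (Ephx1 and Dglucy), and the 52 lower genes had a median of −0.56, with 50 below 0 and 7 called, where 0.974% of all genes were called at that time. The 1-month count of 115 genes was 15 without sham 1 month replicate 2, a gland with skeletal muscle transcripts, and of the genes called at 4 hr Ramp1, a subunit of the CGRP receptor, was then the 1 gene still called. The difference between the early and the late response was called for 6 genes (0.0508%), all larger at 4 hr. They were Slc19a2 (1.91, adjusted p = 0.000176), Mdm2 (1.08, adjusted p = 0.00414), Dcxr (1.02, adjusted p = 0.00465), Ak1 (1.66), Aen (1.52) and Ei24 (0.53), the last 3 with an adjusted p of 0.0278. Their own differences at 1 month were 0.12 for Slc19a2, 0.07 for Mdm2, 0.18 for Dcxr, −0.55 for Ak1, 0.32 for Aen and −0.02 for Ei24. Slc19a2, Mdm2 and Dcxr were called in all 23 other settings tried, Ak1 in 14, Aen in 9 and Ei24 in 8. The count was 3 without HD 4 hr replicate 2, HD 4 hr replicate 4, HD 1 month replicate 1, sham 4 hr replicate 2 or sham 4 hr replicate 3, 14 without HD 1 month replicate 3 and 11 without sham 1 month replicate 1. The class II genes, with a 4 hr median of −0.94, had a median of −0.46 at 1 month with 0 called, and among those called at 4 hr the test of the difference between times came closest to passing for H2-Eb1 (adjusted p = 0.0688). HD 1 month replicate 3 held lymphocyte transcripts, with list means of 1.22 for B cell and 1.24 for T cell genes. In HD 1 month replicates 1, 2 and 4 these means were −0.081, −0.051 and −0.0015 for B cell genes and 0.12, −0.02 and 0.21 for T cell genes. The part of this gland in the class II values at 1 month was not tested.

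BALB/c females given the same HD regimen, set against their own sham mice, gave 331 higher genes (2.80%) and 364 lower genes (3.08%) at 4 hr. Of the C57BL/6 calls, 48 of the 50 higher genes and 52 of the 52 lower genes had the same sign in BALB/c, and 30 and 26 of them were called there. Their medians in BALB/c were 0.73 and −0.70. Cdkn1a gave 2.54 in C57BL/6 and 3.36 in BALB/c, H2-Ab1 gave −1.92 in C57BL/6 and −1.86 in BALB/c, and Elf5 gave −2.55 in C57BL/6 and −1.91 in BALB/c. The test of the strain difference in response called 0 genes with limma (0%), with 686 at an unadjusted p under 0.05 and a median standard error of 0.18. Single genes with unlike values therefore did not pass, such as Krt8 (−0.66 in C57BL/6 and −1.94 in BALB/c, adjusted p of the difference 0.733), Fcgbp (−2.82 in C57BL/6 and −0.70 in BALB/c) and Alas2 (1.57 in C57BL/6 and 0.77 in BALB/c). BALB/c HD replicate 1 held skeletal muscle transcripts, and without it the strain test called 2 genes, Akap9 (0.98) and Ncan (−2.12). Without it BALB/c gave 350 higher and 362 lower genes, and 48 of the 50 and 50 of the 52 C57BL/6 calls kept their sign there, 30 and 22 of them called. The strains lay on separate plates, whose level cancels within each response. An effect of plate column would not cancel. BALB/c HD arrays lay in columns 6 to 8 and BALB/c sham arrays in columns 1, 3 and 4, much as in C57BL/6. Plate column and treatment therefore cannot be told apart in the signs that the strains shared.

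**Figure D5:**
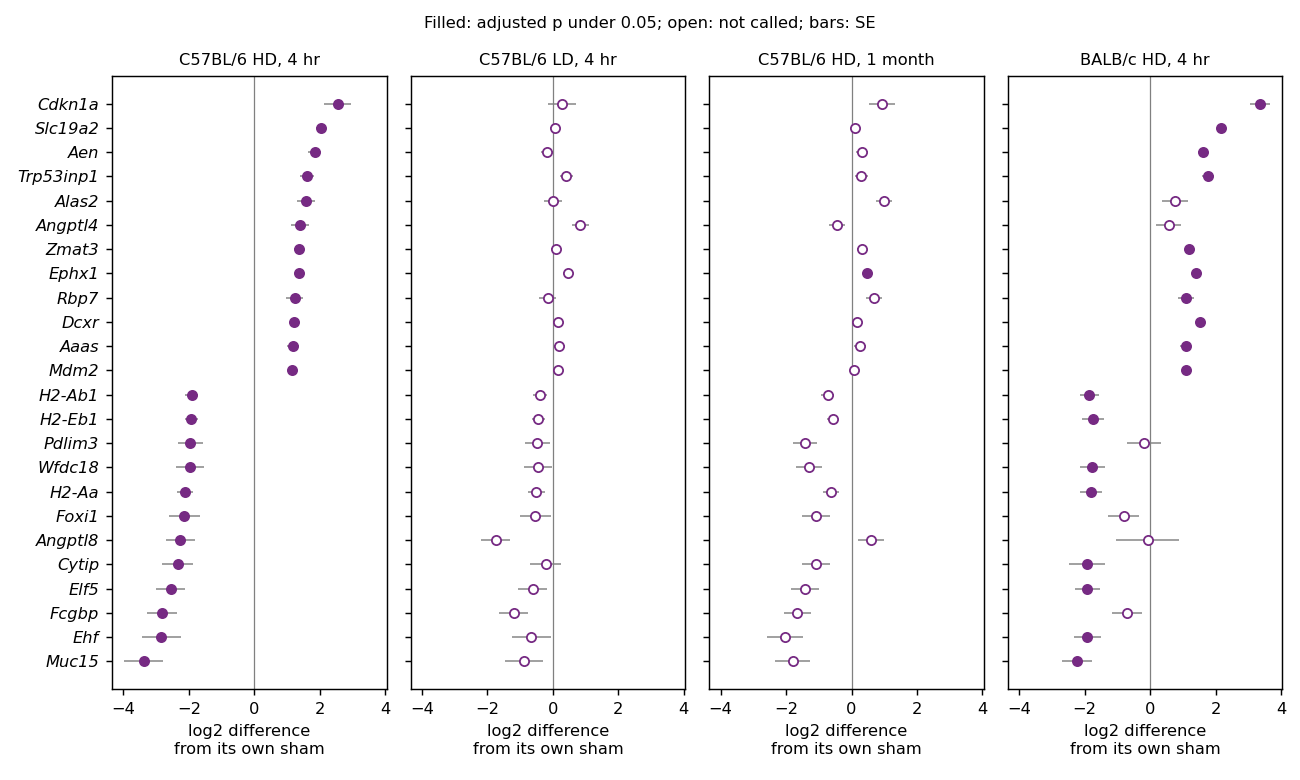
Log2 difference from its own sham group, with the standard error as a bar, for the 12 highest and 12 lowest genes called in C57BL/6 HD glands at 4 hr, in C57BL/6 HD at 4 hr, C57BL/6 LD at 4 hr, C57BL/6 HD at 1 month and BALB/c HD at 4 hr. Filled points have an adjusted p under 0.05, and none of the C57BL/6 LD points is filled, while Cdkn1a lies at 2.54 in C57BL/6 HD glands and 3.36 in BALB/c HD glands at 4 hr.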

How the data were processed

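Female C57BL/6 and BALB/c mammary glands and blood were profiled on Affymetrix HT_MG-430A arrays. The authors deposited log2 values after RMA (background correction, quantile normalization and summary of probes), with limma also named in the submitters' processing notes, and the analysis started from those log2 values unaltered. Of 22626 probe sets, 18003 carried 1 gene symbol (11807 genes), 287 several and 4336 none. A gene was represented by its brightest probe set over the 23 C57BL/6 MG arrays. Of the 50 genes called higher, 25 had a single probe set, and in 49 all probe sets had the same sign. Of the 52 called lower, these counts were 40 and 50. Contrasts of group means were fitted with limma 3.58.1 (R 4.3.3) with moderated variances over those 23 arrays (17 residual degrees of freedom), the BALB/c response over the BALB/c MG arrays and the strain difference over all 43 MG arrays. Benjamini-Hochberg adjustment ran across every probe set. Per the methods each array came from a separate mouse, processed on its own, and the number of arrays limits the precision. The methods give 4 mice per group, and 3 sham arrays at 4 hr were used here.

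Members, the 49 gene lists and the tests were chosen with earlier results of these data known. Named genes were the 12 highest and 12 lowest called genes without overlap, a set of genes of interest, for each list described its 5 members of lowest p and the 8 most extreme genes of each other comparison. Genes named beside these were chosen after their values were seen. Bax, Ccnb1, Trp53, Gdf15, Areg and Krt17 could not be matched by name and were not analysed here. Promoters came from RefSeq, and 9430 of the 11807 genes matched. The fit was tested on simulated arrays with 200 changed probe sets. Alternatives are given in the closing section, and those without arrays of muscle content for BALB/c and for 1 month were chosen after seeing the data. Blood arrays were not used here.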

Additional observations from a re-analysis of the deposited data

Results flagged for a closer look

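In the 4 HD glands, 113 values of named genes and lists were examined for 1 mouse far from the other 3, which chance alone gives in about 1 in 20 groups. The values flagged in these glands were about as many as that share would give. The progesterone receptor gene Pgr was 4.25 in HD replicate 4, above the other HD glands at 3.86 to 3.88, all near the bottom of the scale. Xpc was 7.76 in HD replicate 4, below 7.89 to 7.90 in the others. By list mean, relative to the median over 23 arrays, 1 HD gland stood apart in glucocorticoid-induced genes (0.48), milk protein and secretory genes (−0.35), brown adipocyte genes (1.26) and NK and cytotoxic genes (−0.048).

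The response to HD was larger at 4 hr than at 1 month, by a test of the difference itself, for Slc19a2 (1.91 log2 units), Ak1 (1.66), Aen (1.52), Mdm2 (1.08), Dcxr (1.02) and Ei24 (0.53).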

How the results depend on the processing

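All 102 genes called after HD were recomputed in up to 15 other settings, with dim genes absent from the setting that left out dim probe sets. None changed direction, and 19 were called in every setting: Cdkn1a, Slc19a2, Aen, Trp53inp1, Zmat3, Ephx1, Dcxr, Mdm2, Sesn2, Ei24, Map3k20, Trim11, Fcgbp, H2-Aa, H2-Eb1, H2-Ab1, H2-DMb2, Cd74 and Id2. The 102 calls against sham ranged from 44 to 120 with 1 array left out (47 without HD replicate 1, 49 without HD replicate 3, 44 without sham replicate 1, 61 without sham replicate 3) and were 34 with plate column as a covariate, where 26 genes kept their call. A second quantile normalization gave 65 higher and 43 lower genes, and only the 7 arrays compared gave 42 and 74 (62 of them among the 102). Calls by the study's thresholds, 257 in all, stayed between 188 and 301 with 1 array left out and were 91 higher and 136 lower after a second quantile normalization. Against LD, the 186 calls became 40 with only the groups compared, 16 with plate column, and 46 to 434 with 1 array left out (46 without LD replicate 2, 434 without LD replicate 1), and a second quantile normalization gave 82 higher and 72 lower. The 6 genes whose response differed between 4 hr and 1 month became 3 with plate column, 10 with dim probe sets left out, 10 with a second quantile normalization and 3 to 14 with 1 array left out (14 without HD 1 month replicate 3). The strain test called 0 to 2 genes, 2 without BALB/c HD replicate 1 and 2 without arrays of muscle content.

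Replicate numbers did not pair the mice (mean correlation of deviations 0.01 for shared numbers and 0.00 for others, and 0.01, −0.12 and −0.11 for HD with sham). With the replicate number as a block, 76 genes were called against sham (71 of them among the 102), 243 by the study's thresholds, 167 against LD, 11 between times and 0 between strains. The cause of these shifts was not tested. The number of arrays and the dimness of genes such as Ciita, Pgr and most lymphocyte markers limit what could be detected.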
